A study of Rattus norvegicus with 6 samples.

Results

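The enzymes of glycolysis were followed through the jejunum of stressed and control rats by 10 genes, Hk1, Hk2, Gpi, Pfkl, Aldoa, Gapdh, Pgk1, Eno1, Pkm and Ldha. Their members were chosen by gene name, as every non-control probe whose RefSeq accession belongs to one of these enzymes, and no measured value entered the choice. This gave 14 probes of the 41012 different probes on the array, and 10 of the 13837 gene symbols that could be named. Gapdh is at the same time the gene most used as a reference in expression work. The jejunum, the middle stretch of the small intestine, came from male Sprague-Dawley rats 6 weeks old and weighing 200 ± 20 g. The S3d group was exposed to 35°C and to shaking at 0.1 g for 2 h on each of 3 days, a model of transport stress, whereas the control group stayed at the housing temperature of 25°C without shaking. RNA was measured with 3 rat arrays per group (Agilent, 1 colour), whose spots each hold a short DNA probe for 1 transcript. The labels describe each sample as a pool of 3 rats and give 10 rats per group, but do not say whether pools shared animals. The methods give a smaller group, too small for pools that share no rat. The p-values therefore measure the spread between these samples, which may be in part technical. Whole tissue was measured, so that fewer cells of a type and less RNA per cell cannot be told apart.

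Glycolysis splits glucose into pyruvate and yields ATP and NADH in the cytosol of almost every cell. Hexokinase traps glucose as glucose 6-phosphate, glucose-6-phosphate isomerase and phosphofructokinase lead to fructose 1,6-bisphosphate, and aldolase cleaves it into triose phosphates. Glyceraldehyde-3-phosphate dehydrogenase, phosphoglycerate kinase, enolase and pyruvate kinase complete the path to pyruvate, which lactate dehydrogenase reduces to lactate. The absorbing epithelium of the small intestine takes up dietary glucose and fructose, and uses part of them itself.

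All 6 arrays gave signal for all 14 probes, each well above its local background on every array, and no spot was saturated. The arrays differed strongly in brightness. The 75th percentile of the processed signal, which is the spot intensity after background subtraction, ranged from 414.8 to 430.0 over the control arrays and from 1457.7 to 1558.3 over the S3d arrays. The spike-in control probes went the other way. Their mean log2 signal differed by -0.49 (S3d minus control), against 1.85 for log2 of the 75th percentile. The 3 control arrays lay on 1 slide and the 3 S3d arrays on another, scanned 450 days apart, and an effect of the slide or of its scan therefore cannot be told apart from that of the stress. The authors also deposited a table of normalized log2 values, in which every column followed the scanner file that bears its replicate number in the opposite group (Spearman's rho of at least 0.9999 across probes), while its rho with the file of its own sample was between 0.9415 and 0.9519. The 2 sources therefore carry opposite group labels. No sample was reassigned. Every difference below is S3d minus control as the scanner files are labelled, and against quantile normalization of the scanner signals the normalized table, by its own labels, gave the opposite sign for all 10 genes. Some directions that the study gives for its array genes run against the labels used here, such as the rise of Map1lc3b. Others run with the labels used here, such as the rise of Bcl2, and no full count was made. On the scaled signal defined below, Map1lc3b stood at -0.705 (adjusted p = 0.00012) and Bcl2 at 0.376 (adjusted p = 0.015). The study also reports RT-PCR with mTOR and Herpud1 lower and the other genes tested higher after stress. It describes these changes as following its array data closely. Which labels are right was not tested. The tissue label was checked against villus enterocyte markers, of which 10 of the 10 on the array were tested and above background on all 6 arrays, among them Fabp2, Apoa4, Alpi and Vil1.

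Levels are given as log2 of the processed signal minus log2 of the 75th percentile of the same array, called the scaled signal, so that a level of 0 equals that percentile. Levels of different probes are not set against each other, because probes differ in how strongly they bind. On this scale Hk1 was 2.72-fold higher on the arrays labelled S3d. Hk2, Gpi, Aldoa, Gapdh, Eno1 and Pkm were between 1.77-fold and 2.65-fold lower. Pfkl, Pgk1 and Ldha did not pass the test. Where a probe needed an adjusted p under 0.05 and also a 1.5-fold difference to be counted as changed, 2 of the 14 probes were higher, both of them Hk1, against 29.2% of all 31371 tested probes, and 9 were lower against 23.3% of all tested probes. Without the fold threshold the counts were the same, against 39.5% of all tested probes higher and 34.5% lower. The 2 groups did not overlap for 11 of the 14 probes, against 78.3% of all tested probes. The median of the 10 genes was -0.84 on the log2 scale, and that of all tested probes was 0.085.

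**Figure D1:**
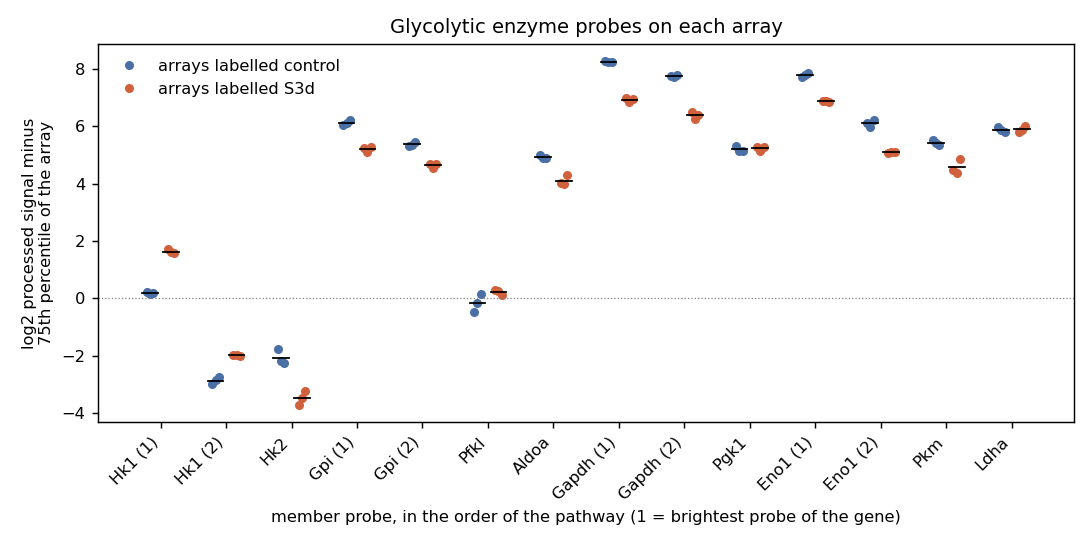
Scaled signal (log2 units, 0 being the 75th percentile of the array) of the 14 probes on each array, with blue points for the 3 arrays labelled control, orange points for the 3 arrays labelled S3d and a black line at each group mean. The groups lie apart for 11 probes and overlap for Pfkl, Pgk1 and Ldha.

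On the scaled signal the 2 hexokinases moved in opposite directions. Hk1, the hexokinase of most tissues, had a scaled signal of 0.23, 0.15 and 0.18 on the control arrays 1, 2 and 3, and of 1.72, 1.60 and 1.57 on the S3d arrays 1, 2 and 3. All S3d arrays lay above all control arrays, and the log2 fold change was 1.44 ± 0.069 (SE, adjusted p = 2e-05). Hk2, the isoenzyme known for its induction by insulin and low oxygen, stood at -1.77, -2.21 and -2.27 on the control arrays and at -3.72, -3.50 and -3.25 on the S3d arrays. It was lower on all S3d arrays, with a log2 fold change of -1.41 ± 0.18 (SE, adjusted p = 0.00064). With no scaling Hk2 stood at 0.44 (adjusted p = 0.058), and with spike-in scaling it was called higher, at 0.93 (adjusted p = 0.0012). Within an array, where no scaling enters, the log2 ratio of Hk1 to Hk2 was higher on every S3d array than on any control array, by 2.85 ± 0.23 log2 units (SE) between the group means. Its exact two-sided permutation p was 0.10, the smallest that 3 arrays against 3 allow, and 0.17 after adjustment over the 5 within-array differences computed.

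Of the enzymes that lead to the triose phosphates, 2 were lower and Pfkl was not called. Gpi, which turns glucose 6-phosphate into fructose 6-phosphate, had a scaled signal of 6.05, 6.11 and 6.21 on the control arrays and of 5.23, 5.12 and 5.27 on the S3d arrays. The groups did not overlap, and the log2 fold change was -0.92 ± 0.077 (SE, adjusted p = 0.00011). Pfkl, the liver-type subunit of phosphofructokinase, which catalyses the committed step, was at -0.48, -0.17 and 0.13 on the control arrays and at 0.27, 0.24 and 0.12 on the S3d arrays. The third control array lay within the range of the S3d arrays. The difference of 0.39 had a 95% interval from -0.009 to 0.78 (adjusted p = 0.07), and it ran from 0.23 without control array 1 (adjusted p = 0.14) to 0.54 without control array 3, the 1 array whose omission let it pass (adjusted p = 0.012). Aldoa, the aldolase that most tissues use, was at 5.0, 4.88 and 4.90 on the control arrays and at 4.04, 3.98 and 4.29 on the S3d arrays. It was lower on all 3 S3d arrays, by 0.83 ± 0.10 log2 units (SE, adjusted p = 0.00054).

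Among the enzymes from triose phosphate to lactate, Gapdh had the largest fall in scaled signal. Under quantile normalization Pkm, at -0.39, fell more than the brightest Gapdh probe, at -0.29, but less than the dimmer one, at -0.53. With no scaling Gapdh was higher. Its brightest probe, spotted 10 times on each array, had a scaled signal of 8.28, 8.23 and 8.26 on the control arrays and of 6.98, 6.84 and 6.95 on the S3d arrays. The log2 fold change was -1.34 ± 0.066 (SE, adjusted p = 2.1e-05), and all S3d arrays lay below all control arrays. Pgk1, which forms the first ATP of the pathway, was at 5.32, 5.14 and 5.12 on the control arrays and at 5.27, 5.14 and 5.29 on the S3d arrays. The groups overlapped, and the difference of 0.039 had a 95% interval from -0.17 to 0.25 (adjusted p = 0.69). Eno1, the enolase of most cells, was at 7.72, 7.81 and 7.86 on the control arrays and at 6.88, 6.89 and 6.87 on the S3d arrays. The 3 S3d arrays lay close together and below all control arrays, with a log2 fold change of -0.92 ± 0.064 (SE, adjusted p = 5.8e-05). Pkm, the pyruvate kinase of muscle and of most tissues other than liver, was at 5.51, 5.41 and 5.34 on the control arrays and at 4.49, 4.38 and 4.84 on the S3d arrays. The S3d array 3 stood somewhat above the other two, still below every control array, and the log2 fold change was -0.85 ± 0.13 (SE, adjusted p = 0.0016). Ldha, the lactate dehydrogenase subunit that favours lactate formation, was at 5.97, 5.86 and 5.80 on the control arrays and at 5.79, 5.86 and 6.02 on the S3d arrays. The groups overlapped, and the difference of 0.013 had a 95% interval from -0.20 to 0.23 (adjusted p = 0.90).

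For 4 enzymes the array held a second probe, which pointed the same way in each case. The dimmer Hk1 probe was higher by 0.89 ± 0.080 log2 units (SE, adjusted p = 0.00015). The dimmer probe was lower by 0.74 for Gpi, by 1.38 for Gapdh and by 1.00 for Eno1. The 2 probes of Gapdh and the 2 probes of Eno1 gave fold changes that differed by 0.046 and 0.077 log2 units, with an exact permutation p of 0.30 and 0.40. Those of Gpi differed by 0.18 and those of Hk1 by 0.56, in both cases with no overlap between the groups (exact permutation p = 0.10).

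The fold change depended on the brightness of the probe over the whole array, and most glycolytic enzymes are bright. When all tested probes were ordered by signal and divided into 10 classes of equal size, the median log2 fold change was 1.28 in the dimmest class and -0.49 in the brightest class, and it was -1.05 over the 314 probes of the brightest 1%. A dim probe could enter the test through the group where it was higher. With detection required on all 6 arrays, the median of all tested probes was -0.025 instead of 0.085. Of the 14 glycolytic probes, 10 belonged to the brightest class, namely all probes of Gpi, Aldoa, Gapdh, Pgk1, Eno1, Pkm and Ldha. Both probes of Gapdh and the brighter one of Eno1 belonged to the brightest 1%. Relative to the median of their own class, Gapdh stood at -0.85, Eno1 and Gpi at -0.43, Pkm at -0.36 and Aldoa at -0.34. Pgk1 and Ldha stood above that median, at 0.53 and 0.50. Hk1 at 1.46 and Hk2 at -1.57 stood slightly farther from 0 than without this comparison. These bright spots were also the ones that the scanner read at its low gain and scaled up. Gpi, Gapdh, Eno1 and Ldha were read so on all 6 arrays at their brightest probe, whereas Aldoa, Pgk1 and Pkm were read so on the 3 S3d arrays only and Hk1, Hk2 and Pfkl on none. The part of the scan gain in these differences was not tested.

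**Figure D2:**
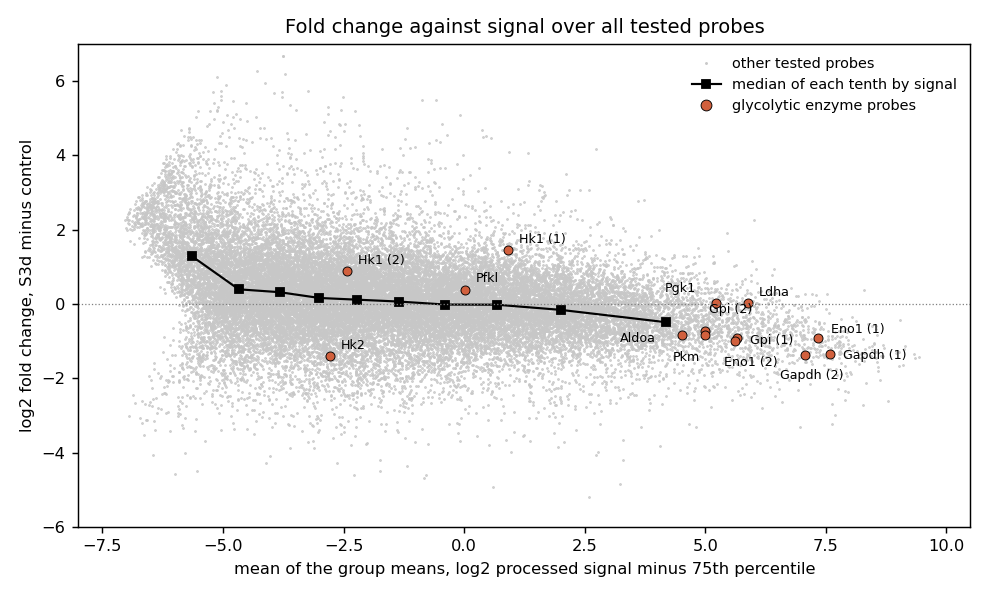
Log2 fold change (S3d minus control) of every tested probe against its mean scaled signal, with the 14 glycolytic probes in orange (1 and 2 mark the brighter and the dimmer probe of a gene), the other probes in grey and black squares at the median of each of 10 classes of probes by signal. The squares fall from 1.28 to -0.49, and 7 probes lie outside the vertical axis.

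How the signal was scaled decided the direction for most of these enzymes. A common factor per array moves all genes together. The median of all tested probes was 0.085 with the 75th percentile, 1.93 with no scaling, 2.42 with the spike-in RNA and 1.42 relative to Gapdh. The processed signal itself was higher on the S3d arrays for 9 of the 10 genes, and for Gapdh it was 128317 to 132112 on the control arrays and 178100 to 192240 on the S3d arrays. For Hk1 it was 473 to 489 on the control arrays and 4632 to 4803 on the S3d arrays. Hk2 alone overlapped, at 89.0 to 121.9 on the control arrays and 111.0 to 163.3 on the S3d arrays. Relative to the median of all tested probes, which no common factor changes, Hk1 stood at 1.36, Pfkl at 0.30, Pgk1 at -0.046, Ldha at -0.072, Aldoa at -0.91, Pkm at -0.93, Gpi and Eno1 at -1.0, Gapdh at -1.42 and Hk2 at -1.49.

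Quantile normalization, which gives all arrays the same distribution of values, kept the opposite movement of the hexokinases and reduced the falls. Under it Hk1 was at 1.49 ± 0.066 (SE, adjusted p = 2e-05) and Hk2 at -1.62 ± 0.19 (SE, adjusted p = 0.00049). Ldha and Pgk1 were then called higher, at 0.67 ± 0.099 (SE, adjusted p = 0.0014) and 0.56 ± 0.071 (SE, adjusted p = 0.00077). Gapdh at -0.29, Gpi at -0.34, Pkm at -0.39 and Aldoa at -0.43 stayed lower, with adjusted p-values from 0.0076 to 0.045. The dimmer Gapdh probe fell more than the brighter one, at -0.53 (adjusted p = 0.00056). Eno1 stood at 0.011 (adjusted p = 0.90), although its dimmer probe was at -0.42 (adjusted p = 0.0052), and Pfkl at 0.39 (adjusted p = 0.069). This made 4 probes of the 14 higher against 35.0% of all tested probes, and 8 lower against 35.6%. With normexp background correction, another estimate of the background, Hk1 was the 1 gene of the 10 that passed, at 1.57 ± 0.23 (SE, adjusted p = 0.023), and Hk2 stood at -1.81 ± 0.40 (SE, adjusted p = 0.056).

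**Figure D3:**
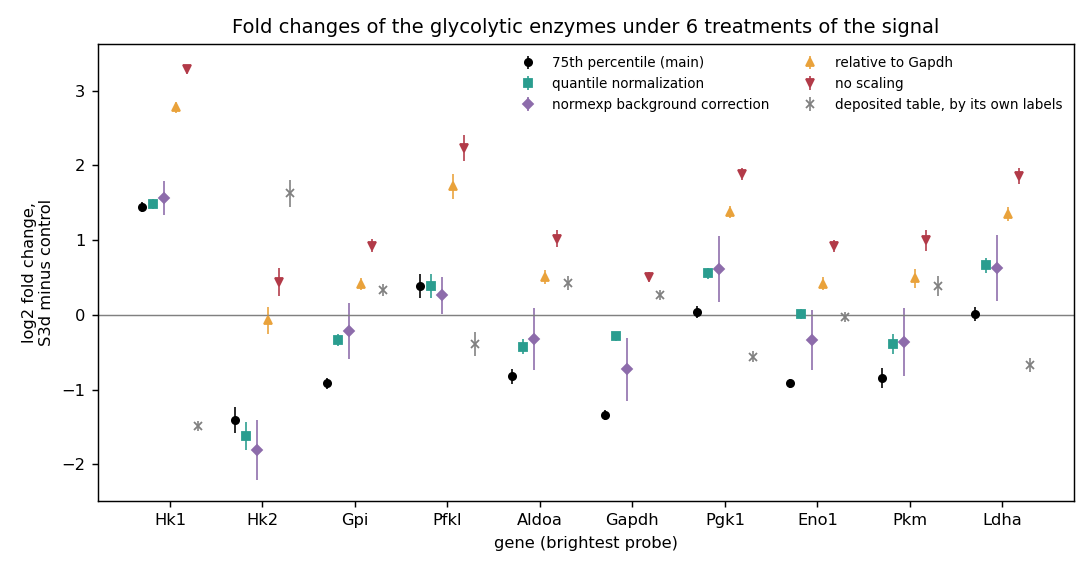
Log2 fold change (S3d minus control) of each gene on its brightest probe under 6 treatments of the signal, with bars for the SE of the fit (3 arrays per group). As the scanner files are labelled, Hk1 is above 0 under every treatment shown, and Gapdh runs from -1.34 with the 75th percentile to 0.51 with no scaling. The grey crosses are the deposited table by its own, opposite labels.

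Because Gapdh is the usual reference, the other enzymes were also set against it within each array. Relative to Gapdh, Hk1 was 6.86-fold higher on the S3d arrays (log2 fold change 2.78 ± 0.074, SE, adjusted p = 2.5e-06) and Pfkl 3.30-fold higher (adjusted p = 7.5e-05). Pgk1 and Ldha were 2.59-fold and 2.55-fold higher (adjusted p = 7.4e-06 and 1.9e-05). Gpi, Aldoa, Eno1 and Pkm were between 1.33-fold and 1.42-fold higher, with adjusted p-values from 0.002 to 0.0084. Hk2 did not differ from Gapdh beyond the spread, at -0.073 ± 0.18 (SE, adjusted p = 0.71). The second Gapdh probe stood at -0.046 (adjusted p = 0.54). In all, 11 of the 13 other probes were higher against Gapdh and none was lower, where 87.2% of all tested probes were higher and 4.46% lower. The values on the single arrays show how these ratios were spread. Pgk1 over Gapdh lay between -0.077 and 0.11 log2 units around the control mean on the control arrays and between 1.35 and 1.41 on the S3d arrays. Ldha over Gapdh lay between -0.085 and 0.075 on the control arrays and between 1.19 and 1.46 on the S3d arrays. Hk2 over Gapdh ran from -0.20 to 0.30 on the control arrays and from -0.36 to 0.14 on the S3d arrays, so that the groups overlapped.

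**Figure D4:**
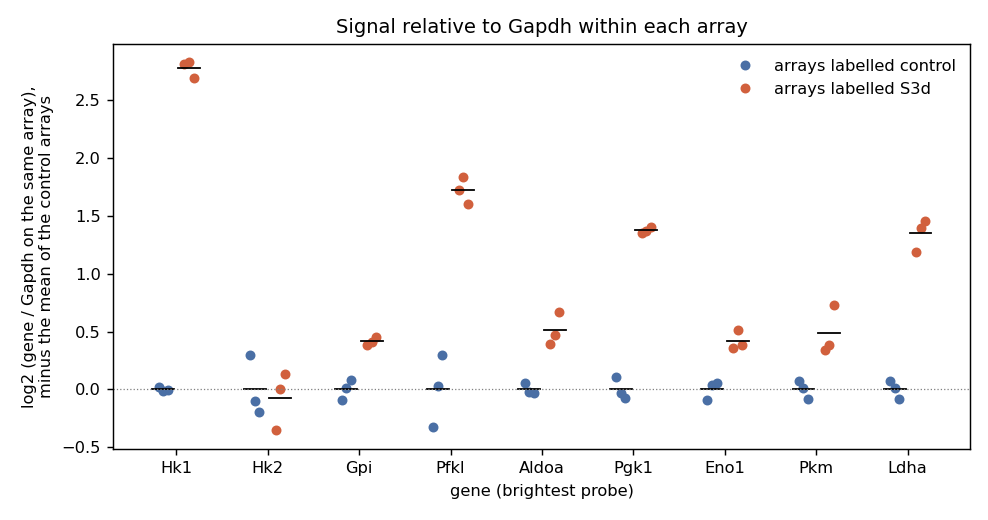
Log2 ratio of each enzyme to Gapdh on the same array, both on the brightest probe, minus the mean ratio of the 3 control arrays, with blue points for the arrays labelled control, orange points for the arrays labelled S3d and a black line at each group mean. The groups overlap for Hk2 alone, and Hk1 lies highest, at 2.69 to 2.83 on the S3d arrays.

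Gapdh was not the only reference gene whose scaled signal fell. Of 13 other genes in use as references, 8 were lower, 2 were higher and 3 were not called, with a median of -0.42. Tfrc and Hprt1, not called on their brightest probes at -0.15 and -0.21, had other probes of the opposite sign. These reached 2.53 for Tfrc (adjusted p = 1.1e-05) and 0.15 for Hprt1 (adjusted p = 0.082). Actb, the cytoskeletal actin, was at -1.62 ± 0.057 (SE, adjusted p = 1.2e-05), B2m, the light chain of MHC class I, at -2.04 ± 0.070 (SE, adjusted p = 1.2e-05) and Ppia, a cyclophilin, at -1.95 ± 0.078 (SE, adjusted p = 1.4e-05). Gusb, a lysosomal glucuronidase, and Rplp0, a ribosomal protein, were higher by 0.54 and 0.24. The direction of this list depended on the scaling, since quantile normalization gave 5 higher and 3 lower with a median of 0.022 and no scaling gave 11 higher and 0 lower. Actb, B2m and Ppia were lower under quantile normalization too, at -0.38, -0.75 and -1.66, and were lower relative to Gapdh, at -0.28, -0.70 and -0.62.

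The upstream sequence of 4 of the enzymes is shown because they mark the range of responses on the scaled signal. There Hk1 and Hk2 moved in opposite directions, Gapdh was lower and Ldha was not called. Gapdh was higher with no scaling, Hk2 was called higher with spike-in scaling, and Ldha was called higher under quantile normalization. The 250 bases before the start site were taken from RefSeq (rat assembly GRCr8), which held 13 windows for 9 of the 10 genes. Pgk1 was not matched. The windows are chr20:30842073-30842322 on the minus strand for Hk1, chr4:116841276-116841525 on the minus strand for Hk2, chr4:159652468-159652717 on the minus strand for Gapdh and chr1:106507842-106508091 on the plus strand for Ldha. Each is written 5′ to 3′ on the strand of the gene, and capitals mark ACGTG, the core that hypoxia-inducible factor binds, and GGGCGG, the GC box, on either strand.
Hk1: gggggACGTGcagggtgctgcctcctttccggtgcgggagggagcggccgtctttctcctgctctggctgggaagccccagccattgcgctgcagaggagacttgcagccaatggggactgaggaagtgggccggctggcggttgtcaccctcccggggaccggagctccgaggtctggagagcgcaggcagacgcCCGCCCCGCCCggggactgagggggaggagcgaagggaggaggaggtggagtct
Hk2: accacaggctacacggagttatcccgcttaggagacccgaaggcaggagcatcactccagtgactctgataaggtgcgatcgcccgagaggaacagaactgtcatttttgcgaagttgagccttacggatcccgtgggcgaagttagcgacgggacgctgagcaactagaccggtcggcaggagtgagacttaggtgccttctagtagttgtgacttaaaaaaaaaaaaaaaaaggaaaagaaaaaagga
Gapdh: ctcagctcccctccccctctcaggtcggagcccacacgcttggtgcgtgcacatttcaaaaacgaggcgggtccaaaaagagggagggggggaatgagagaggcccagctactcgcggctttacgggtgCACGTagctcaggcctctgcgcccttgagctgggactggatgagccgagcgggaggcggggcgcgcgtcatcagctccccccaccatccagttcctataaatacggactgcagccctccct
Ldha: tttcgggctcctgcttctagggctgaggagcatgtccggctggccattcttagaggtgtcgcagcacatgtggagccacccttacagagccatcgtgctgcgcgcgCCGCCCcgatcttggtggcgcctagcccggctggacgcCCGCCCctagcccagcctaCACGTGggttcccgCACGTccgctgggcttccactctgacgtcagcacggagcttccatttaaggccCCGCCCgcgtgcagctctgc
ACGTG was found in 4 of the 13 windows, those of Ldha, Gapdh, Hk1 (in 1 of its 2 windows) and Aldoa (in 1 of its 3 windows), against 16.6% of all 33469 RefSeq windows of the same length. The Ldha window held it 3 times, at 73, 86 and 87 bases before the start, of which the overlapping pair forms CACGTG, the palindromic E-box that reads the same on both strands. CACGTG was found in 5.59% of all windows and in no other window of these genes. GGGCGG was found in 7 of the 13 windows and in 30.5% of all windows. Neither ACGTG nor GGGCGG was found in the window of Hk2, nor in the Hk1 window that is not printed (chr20:30874815-30875064 on the minus strand). These matches describe letters and no binding.

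The other isoenzymes of the pathway were split as well. Of 13 on the array, 12 were tested, of which 6 were higher, 5 were lower and Hk3 was not called, with a median of 0.20, and quantile normalization gave the same counts, while no scaling gave 10 higher and 0 lower. The largest rises were Pgam2, the muscle phosphoglycerate mutase, at 2.12 ± 0.21 (SE, adjusted p = 0.00022) and Gapdhs, the sperm form of Gapdh, at 1.79 ± 0.29 (SE, adjusted p = 0.0019), each of them well above background on only 2 of the 3 control arrays. The largest falls were Pklr, the liver and intestine pyruvate kinase, at -1.88 ± 0.098 (SE, adjusted p = 2.4e-05) and Ldhc, the testis lactate dehydrogenase, at -1.75 ± 0.38 (SE, adjusted p = 0.0062), well above background on 2 of the 3 S3d arrays. The other genes lower were Aldoc, Pgam1 and Eno3. The 2 probes of Pgam1 disagreed, at -1.22 for the brighter and 0.23 for the dimmer one.

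Among 11 tested regulators of the flux through glycolysis, 4 were higher, 4 were lower and 3 were not called, and quantile normalization gave the same counts, while no scaling gave 10 higher and 1 lower. Pfkfb3, which makes the activator of phosphofructokinase, had the largest change, at -3.25 ± 0.15 (SE, adjusted p = 1.9e-05), and Mlxipl, the glucose-responsive transcription factor ChREBP, was at -1.35 ± 0.079 (SE, adjusted p = 3.4e-05). Txnip, a target of that factor that restrains glucose uptake, was at 1.29 ± 0.12 (SE, adjusted p = 0.00015) and Gckr, which holds glucokinase inactive, at 1.27 ± 0.38 (SE, adjusted p = 0.024). Pfkfb4 and Pdk1 were the other genes higher, and Pfkfb1 and Pdk4 the other genes lower. Of 8 tested carriers of glucose and lactate, 1 was higher and 5 were lower, with a median of -0.88, and the counts were the same under quantile normalization, with a median of -0.61, while no scaling gave 7 higher and 0 lower. Slc5a1, the sodium-glucose cotransporter SGLT1 of the brush border, was at -1.57 ± 0.12 (SE, adjusted p = 8.7e-05), and Slc2a1, the glucose transporter GLUT1, at -1.43 ± 0.076 (SE, adjusted p = 2.5e-05). Slc2a3, Slc16a3 and Bsg were also lower, although Bsg was at 0.065 under quantile normalization (adjusted p = 0.58). Slc2a5, the fructose transporter GLUT5, was higher by 0.68 ± 0.16 (SE, adjusted p = 0.0094).

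**Figure D5:**
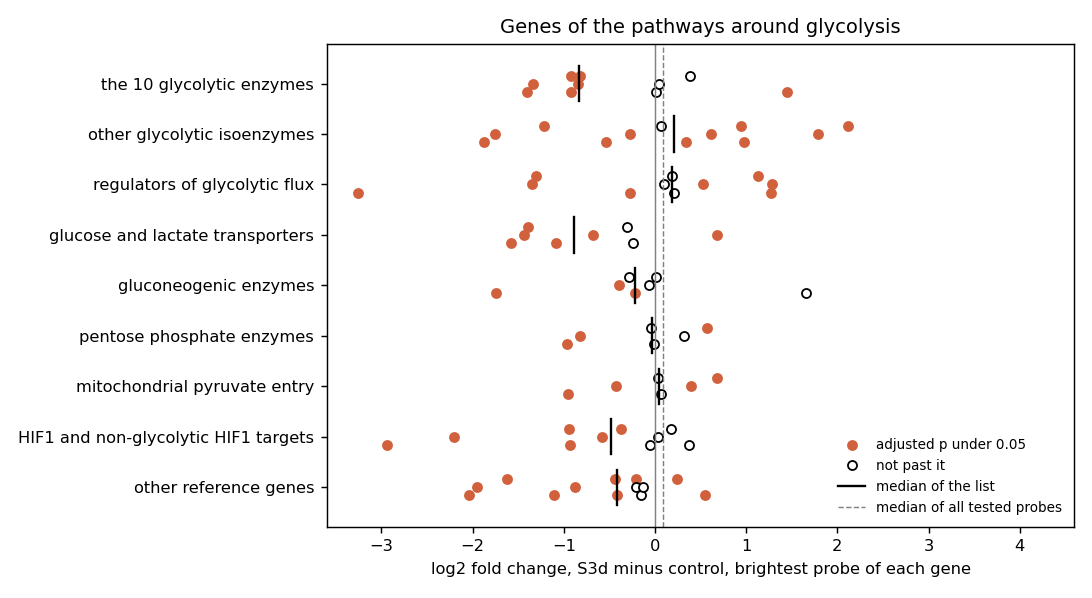
Log2 fold change (S3d minus control, scaled signal) of each tested gene on its brightest probe, by list, with filled points for genes with an adjusted p under 0.05, open points for the others, a black bar at the median of each list and a dashed line at the median of all tested probes (0.085). The 10 glycolytic enzymes have a median of -0.84, and each list holds genes on both sides of 0.

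Markers of other and of the expected cell types were read on the same scale. Each summed signal adds the unlogged values of the probes of a list on an array, so that the brightest probes weigh most. Of 10 villus enterocyte markers 8 were lower and Lct alone was higher, with a median of -1.03 and a summed scaled signal of 3790 to 4190 on the control arrays against 1660 to 1710 on the S3d arrays, the falls being largest for Fabp1 (-1.64) and Apoa1 (-1.46). This fall depended on the scaling, since quantile normalization gave 3 higher, 1 lower and a median of 0.046, and no scaling gave 10 higher and 0 lower. Of 4 erythroid markers 3 were lower, Hbb at -3.76, Alas2 at -1.65 and Ahsp at -1.16, and Slc4a1 was higher at 0.34. Their summed signal was 3.72 to 4.16 on the control arrays and 0.796 to 1.09 on the S3d arrays. Leukocyte markers gave 6 lower and 2 higher of 8 tested and a summed signal of 13.6 to 15.2 against 9.73 to 10.4. Quantile normalization kept 3 erythroid and 6 leukocyte markers lower, with 0 and 2 higher, whereas no scaling gave 1 lower in each list, with 2 erythroid and 7 leukocyte markers higher. Smooth muscle markers gave 4 lower and 2 higher of 8 tested, with overlapping sums of 130 to 155 and 117 to 138. Proliferation markers gave 4 higher and 2 lower of 7 tested, with overlapping sums of 49.4 to 54.1 and 46.6 to 50. Under quantile normalization these lists gave 3 higher and 4 lower for smooth muscle and 4 higher and 1 lower for proliferation, and with no scaling 8 and 6 higher and 0 lower. The part of these cell types in the values of the glycolytic enzymes was not tested.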

How the data were processed

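RNA of rat jejunum was measured on 6 one-colour Agilent arrays, 3 per group. The authors deposited the scanner output of Agilent Feature Extraction (10.7 per the labels, 10.7.3.1 per the file headers), whose processed signal is an intensity after background subtraction, without any normalization across arrays, and 1 table of log2 values with 6 columns that hold nearly the same distribution, so that it had been quantile-normalized. The methods name a general analysis of variance and no normalization.

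The main values are log2 processed signals minus the 75th percentile of the array. Control spots and outlier-flagged spots did not enter, and repeated spots were averaged. A probe was tested where every array of 1 group or of both had it well above background, which 31371 of 41012 met, with limma 3.58.1 in R 4.3.3 (lmFit, eBayes), with Benjamini-Hochberg adjustment over all of them. The number of arrays limits the precision. A gene stands on its probe with the highest mean signal. Probes were named through RefSeq accessions (GRCr8), which named 17512. Genes are named by rule, as all members, the 2 largest rises and falls of each other list among the called genes, Actb, and every gene in a count of 5 or fewer. The marker genes named in the check of the tissue were chosen after their values were seen. The members, the gene lists and the alternatives were chosen with earlier results of these data known. The alternatives were scaling by the median, spike-ins, Gapdh, Actb or not at all, quantile normalization, normexp with an offset of 50 (on the median signal, since no mean signal was given), looser and stricter filters on dim probes, flagged spots included, the deposited table, a replicate block, an intensity trend, averaging the probes of a gene, the analysis of variance of the methods and each array left out. The fits were tested on simulated data. Sequence windows and figures were made in Python 3.11.15 (pandas 2.3.3, matplotlib 3.10.9).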

Additional observations from a re-analysis of the deposited data

How the results depend on the processing

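Hk1 kept its direction under every alternative that used the labels of the scanner files, whereas Hk2 and the bright enzymes turned with the scaling of the arrays. Of the changed probes over the whole array, 16456 in the report, 28903 were counted with no scaling, 30275 with spike-in scaling, 26133 with Gapdh scaling, 27863 with Actb scaling and 1752 with normexp. The glycolytic probes changed at least 1.5-fold, 2 higher and 9 lower in the report, were 11 and 0 with no scaling, 14 and 0 with spike-in scaling, 6 and 0 with Gapdh scaling, 11 and 0 with Actb scaling, 1 and 0 with normexp, 3 and 1 with quantile normalization, and 1 and 3 in the deposited table. With no scaling the log2 fold change turned to 0.44 for Hk2, 0.93 for Gpi, 1.02 for Aldoa, 0.51 for Gapdh, 0.93 for Eno1 and 1.00 for Pkm. With spike-in scaling these were 0.93, 1.42, 1.51, 1.00, 1.42 and 1.49. With Gapdh scaling Gpi turned to 0.42, Aldoa to 0.51, Eno1 to 0.42 and Pkm to 0.49. With Actb scaling Hk2 turned to 0.21, Gpi to 0.70, Aldoa to 0.80, Gapdh to 0.28, Eno1 to 0.70 and Pkm to 0.77. Quantile normalization turned Eno1 to 0.011, and median centring turned Pgk1 to -0.16 and Ldha to -0.19. By the opposite labels of the deposited table Hk1 was at -1.49, Hk2 at 1.63, Gpi at 0.33, Pfkl at -0.39, Aldoa at 0.42, Gapdh at 0.27, Pgk1 at -0.56, Eno1 at -0.027, Pkm at 0.39 and Ldha at -0.67. Leaving out 1 array at a time, Ldha ran from -0.053 to 0.063, and turned below 0 without control array 3 (-0.026) and without S3d array 3 (-0.053). Pfkl passed the test without control array 3 and with an intensity trend (adjusted p = 0.044). With the replicate number as a block 16203 probes were changed and no call on the 10 genes moved. The deviations of equally numbered arrays correlated at 0.02, 0.022 and -0.049, so the numbers do not pair the arrays. Slide and scan could not be fitted as a block, since no slide held both groups.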

Other observations

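The pathways that leave or reverse glycolysis were read on the same scaled signal, as S3d minus control. Of 7 gluconeogenic enzymes 0 were higher and 3 were lower, namely Pc, which makes oxaloacetate from pyruvate, at -1.75 ± 0.13 (SE, adjusted p = 6.4e-05), Fbp2, a fructose-bisphosphatase, at -0.39 and Pck2, the mitochondrial PEP carboxykinase, at -0.22, and quantile normalization gave 2 higher and 1 lower. Fbp1 and Slc37a4 were not called on their brighter probes, at -0.07 and 0.011. Their dimmer probes were at 0.97 (adjusted p = 0.0017) for Fbp1 and -0.42 (adjusted p = 0.024) for Slc37a4. Of 6 enzymes of the pentose phosphate pathway, which branches off at glucose 6-phosphate, Rpia was higher at 0.57, and Tkt at -0.96 and Pgls at -0.82 were lower, while quantile normalization gave 3 higher and 1 lower. Of 6 genes that bring pyruvate into the mitochondrial citrate cycle, Pdhb at 0.68 and Pdha1 at 0.39, both subunits of pyruvate dehydrogenase, were higher, and Mpc2, a part of the pyruvate carrier, at -0.95 and Dlat at -0.43 were lower, whereas quantile normalization gave 4 higher and 2 lower. With no scaling 6 genes of each of these 3 lists were higher and 0 were lower.

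Hif1a, the oxygen-regulated subunit of HIF1, and its targets outside glycolysis held 6 lower and 0 higher of 10 tested genes, with a median of -0.48, against 4 lower and 1 higher under quantile normalization and 2 lower and 8 higher with no scaling. Adm, a vasodilator peptide, was at -2.94 ± 0.21 (SE, adjusted p = 6.6e-05) and Vegfa, the angiogenic growth factor, at -2.20 ± 0.068 (SE, adjusted p = 1.1e-05). Both stayed lower under quantile normalization, at -2.80 and -2.16, and relative to Gapdh, at -1.60 and -0.86. Among the proliferation markers the largest rises were Ccnb1 (0.46) and Mcm2 (0.38) and the falls Birc5 (-1.38) and Cdk1 (-0.53). Among the smooth muscle markers they were Myh11 (0.98) and Smtn (0.31), each with a dimmer probe of the other sign, and Mylk (-1.57) and Des (-1.19). Among the leukocyte markers they were Itgam (0.97) and Csf1r (0.87), and Ptprc (-2.64, with a dimmer probe at 0.69) and Cd79b (-1.13).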
